A study of Mus musculus with 12 samples.

Results

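The comparison was between H2AK119ub maps of mouse c-Kit+ bone marrow cells that carried the 10RA form of ASXL1 and of cells that carried an empty vector. The members were the peaks of these 2 CUT&RUN libraries, 28228 peaks in 10RA and 20124 in vector, out of 159554 peaks on chromosomes 1 to 19, X and Y in the 12 libraries of the series. Each library stood alone for its condition, so no value below has a replicate check, no test between conditions was possible, and intervals on shares cover counting error only. In the 10RA condition the cells received retroviruses for BAP1 and for ASXL1 residues 1 to 590 in the 10RA form, which the labels describe as condensation-impaired. In the vector condition they received the same BAP1 retrovirus together with an empty retrovirus. Both conditions therefore carried added BAP1, both carry the genotype label mock, and both share 1 batch label. The cells were purified from bone marrow, stimulated overnight and transduced; the labels give no strain, age or number of animals, and the share of cells that took up each virus was not given in the sources used here. The ASXL1 1-590 and 25RA libraries of the same batch are set beside the results only where stated. Peak lists do not measure RNA, so the labelled cell type could not be checked against expressed markers.

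H2AK119ub is histone H2A carrying a single ubiquitin on a lysine of its tail. Polycomb repressive complex 1 lays it down, and BAP1, a deubiquitinase that works with ASXL proteins, removes it. It is known for marking silent developmental genes such as the Hox clusters, and it also lies at lower levels over many CpG-rich promoters. Truncated ASXL1 proteins occur in myeloid malignancies, and blood stem and progenitor cells are the cells in which Hox genes and their cofactors are normally active. CUT&RUN maps such a mark by tethering a nuclease to its antibody and sequencing the fragments set free.

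The promoters with the strongest peaks of each class are shown first, since these starts lead the classes described further on. Each runs from 150 bases before the transcription start site (TSS) to 50 bases from it on, in the direction of the gene, read from GRCm39, with capitals marking CpG dinucleotides. The first group had a promoter peak only in 10RA. Sde2 acts in pre-mRNA splicing and at replication forks, Hat1 is a histone acetyltransferase, and Gpr137b is a lysosomal membrane protein.
Sde2, chr1:180678522-180678721, plus strand: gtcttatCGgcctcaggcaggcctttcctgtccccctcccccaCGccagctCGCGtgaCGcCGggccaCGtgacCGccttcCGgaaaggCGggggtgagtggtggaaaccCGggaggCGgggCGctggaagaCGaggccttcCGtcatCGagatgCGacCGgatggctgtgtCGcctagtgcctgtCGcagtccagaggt
Hat1, chr2:71218242-71218441, plus strand: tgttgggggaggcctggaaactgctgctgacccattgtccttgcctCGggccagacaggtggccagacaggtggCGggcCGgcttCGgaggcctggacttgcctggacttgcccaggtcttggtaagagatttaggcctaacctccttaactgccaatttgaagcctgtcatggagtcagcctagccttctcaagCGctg
Gpr137b, chr13:13568168-13568367, minus strand: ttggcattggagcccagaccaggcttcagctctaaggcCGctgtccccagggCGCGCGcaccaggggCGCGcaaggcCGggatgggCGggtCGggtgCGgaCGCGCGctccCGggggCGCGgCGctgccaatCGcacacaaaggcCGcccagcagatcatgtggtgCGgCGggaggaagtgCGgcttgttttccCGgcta

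The next group had a promoter peak only in vector. Taf2 is a subunit of the general transcription factor TFIID, Bpnt2 is a Golgi phosphatase, and Ndufb11 is a subunit of respiratory complex I.
Taf2, chr15:54935499-54935698, minus strand: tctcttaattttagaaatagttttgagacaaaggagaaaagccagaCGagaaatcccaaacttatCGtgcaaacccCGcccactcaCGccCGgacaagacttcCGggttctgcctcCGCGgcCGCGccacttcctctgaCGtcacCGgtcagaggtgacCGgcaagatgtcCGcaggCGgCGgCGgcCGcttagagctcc
Bpnt2, chr4:4793333-4793532, minus strand: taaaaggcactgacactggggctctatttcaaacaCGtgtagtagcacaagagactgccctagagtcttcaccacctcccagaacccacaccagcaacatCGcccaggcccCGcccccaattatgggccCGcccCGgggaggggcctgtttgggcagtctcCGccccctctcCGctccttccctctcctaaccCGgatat
Ndufb11, chrX:20484408-20484607, minus strand: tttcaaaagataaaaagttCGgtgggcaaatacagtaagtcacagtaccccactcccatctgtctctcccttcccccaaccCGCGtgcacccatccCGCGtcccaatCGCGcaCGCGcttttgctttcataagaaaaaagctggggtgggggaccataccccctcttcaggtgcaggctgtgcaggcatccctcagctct

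The last group had a strong promoter peak in both. Zfp619 is a zinc finger gene, Psmc6 is an ATPase of the proteasome, and Tomm70a is a receptor of the mitochondrial outer membrane.
Zfp619, chr7:39167019-39167218, plus strand: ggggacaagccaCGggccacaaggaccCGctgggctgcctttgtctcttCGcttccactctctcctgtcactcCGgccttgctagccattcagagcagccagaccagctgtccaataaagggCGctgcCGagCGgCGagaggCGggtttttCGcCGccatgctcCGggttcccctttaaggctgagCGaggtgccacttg
Psmc6, chr14:45567065-45567264, plus strand: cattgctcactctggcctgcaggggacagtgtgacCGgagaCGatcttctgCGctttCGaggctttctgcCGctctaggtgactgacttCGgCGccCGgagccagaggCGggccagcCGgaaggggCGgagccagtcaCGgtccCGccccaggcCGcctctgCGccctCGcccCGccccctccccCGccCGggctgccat
Tomm70a, chr16:56941642-56941841, plus strand: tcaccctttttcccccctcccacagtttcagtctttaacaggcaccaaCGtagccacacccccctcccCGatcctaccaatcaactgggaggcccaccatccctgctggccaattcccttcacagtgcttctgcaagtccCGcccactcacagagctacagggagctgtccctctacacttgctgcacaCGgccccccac
The 200-base windows held 20 CpG in Sde2, 5 in Hat1 and 23 in Gpr137b, 18 in Taf2, 8 in Bpnt2 and 9 in Ndufb11, and 13 in Zfp619, 19 in Psmc6 and 4 in Tomm70a. These 9 windows vary widely in CpG within each class and do not show the order of the class medians, which is given over all genes further on.

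The libraries differed in depth before they differed in anything else. From the fold and p-value of every peak, the fragment pileup at the summit and the local background could be recovered as whole fragments. The lowest background, taken as the genome background, was 1.72 fragments per base in 10RA and 0.908 in vector, a ratio of 1.90. A peak had to reach 7 fragments in 10RA and 5 in vector to be listed, which is 4.07 times the genome background in 10RA and 5.51 times in vector. A weak site could therefore be listed more easily in 10RA. For this reason counts are given as listed, with the 10RA list cut to the length of the vector list, and as the number of 10RA peaks expected to pass if its fragments were thinned to the depth of vector.

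As listed, H2AK119ub peaks lay over about as many promoters in 10RA as in vector, and the strongest sites were shared. With the 10RA list cut to equal length or thinned to the depth of vector, fewer promoters were marked in 10RA than in vector. The list in 10RA was longer mainly through weak peaks away from promoters. Of the 10RA intervals, 8513 of 28228 met a vector interval (30.2%, Wilson 95% interval 29.6 to 30.7), and of the vector intervals 8512 of 20124 met a 10RA interval (42.3%, 41.6 to 43.0). Among the first 500 peaks by p-value, 96.8% in 10RA and 92.0% in vector met an interval of the other list. Among the last ranks the share was 12.4% in 10RA (ranks 20001 to 28228) and 15.3% in vector (ranks 20001 to 20124). Expected at the depth of vector, 10RA would list 18583 peaks, against the 20124 listed in vector.

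Agreement depended on place. At promoters, 61.8% of 10RA summits lay in an interval that met the vector list, and 65.3% of vector summits lay in one that met the 10RA list. In introns the shares were 13.7% in 10RA and 22.0% in vector, and outside genes 14.5% in 10RA and 26.0% in vector. Shared intervals were wider, with a median of 388 bases in 10RA and 386 in vector, against 272 bases for those only in 10RA and 267 for those only in vector. Peaks found in 1 list only lay far from genes' starts, at a median of 19029 bases from the nearest TSS for 10RA and 15518 bases for vector.

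A smaller share of 10RA peaks than of vector peaks lay at promoters. Promoters were defined by the canonical TSS and 2 kb to either side of it and made up 3.01% of the genome. They held 31.8% of summits in 10RA (31.3 to 32.4) and 42.2% in vector (41.5 to 42.9). With both lists cut to their first 5000 peaks by p-value the shares were 60.6% in 10RA (59.2 to 61.9) and 70.7% in vector (69.4 to 72.0). In the first 500 they were 81.6% in 10RA (78.0 to 84.8) and 79.2% in vector (75.4 to 82.5), so the strongest peaks did not differ in this way, while in the first 10000 the share was 48.6% in 10RA and 57.4% in vector. After thinning to the depth of vector, 36.2% of the expected 10RA peaks lay at promoters.

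**Figure D1:**
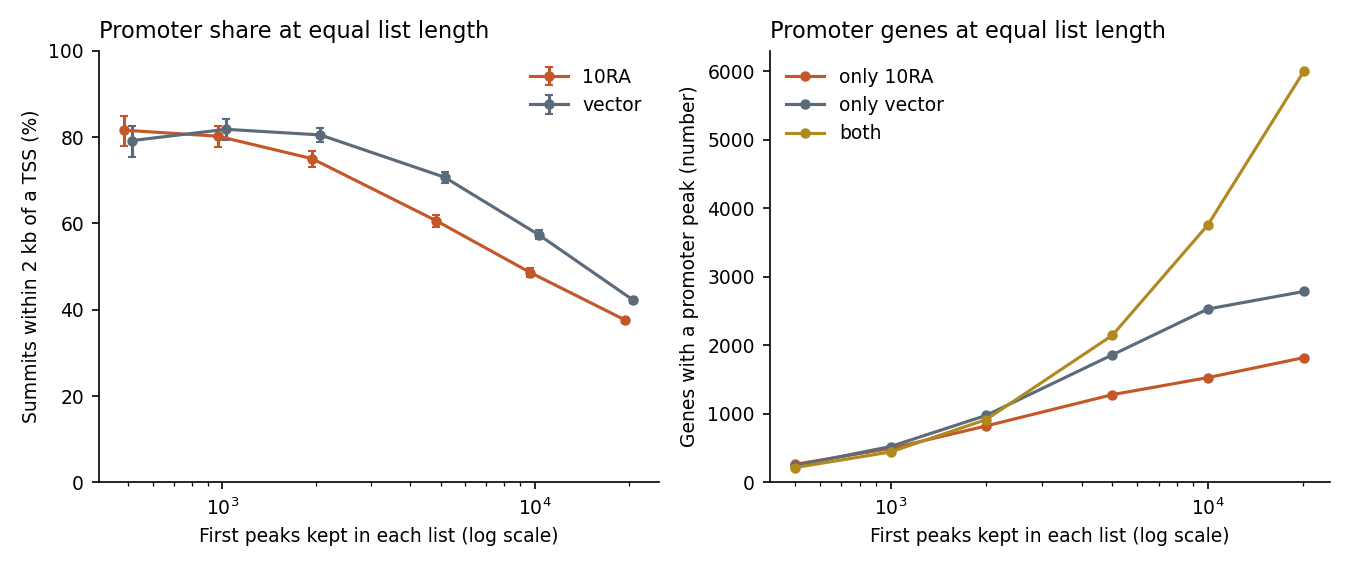
Left, the share of summits within 2 kb of a TSS (percent) in 10RA and vector when each list is cut to the same number of first peaks by p-value, with Wilson 95% intervals and points set slightly apart sideways; right, the number of protein-coding genes with a promoter peak only in 10RA, only in vector or in both at the same lengths. The promoter share in 10RA was 60.6% against 70.7% in vector at 5000 peaks, and genes with a peak only in vector outnumbered those only in 10RA from 1000 peaks on.

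Of 21738 protein-coding genes, 6582 had a promoter peak in both conditions (30.3%), 2405 only in 10RA (11.1%) and 2216 only in vector (10.2%). Genes with a peak in both made up 73.2% of the 8987 genes marked in 10RA and 74.8% of the 8798 marked in vector. The slight excess of genes marked only in 10RA turned round on matching. Both matchings remove 10RA peaks and leave the vector list whole, so the direction of this shift was fixed beforehand. With the 10RA list cut to equal length by p-value, 1823 genes were only in 10RA and 2788 only in vector. At the depth of vector, 1618 were expected only in 10RA and 3370.0 only in vector. Most of the genes in 1 class had no interval of the other list nearby: 89.1% of those only in 10RA and 85.5% of those only in vector had none within 5 kb of the TSS.

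The genes that led each class had varied cellular roles. Fold below is the fold enrichment over local background that the authors' caller gave each peak, and it orders peaks within 1 list only. Among genes marked only in 10RA, Sde2 led with a fold of 7.37 at a summit 110 bases before its TSS. Hat1 followed with 7.11, at 1054 bases after its TSS, and Gpr137b with 6.98. Others of the first 10 were Vps51, a tethering factor of the Golgi (6.54), the nuclear pore subunit Nup107 (6.40) and Opa1, which fuses mitochondrial inner membranes (6.25). Acbd5 of peroxisomes (6.07), the RNA-binding protein gene L1td1 (6.01) and Spata7 (5.99) were also among them. The nearest vector interval was 7485 bases from the start of Vps51 and 130223 bases from that of Gpr137b. The leading peak of this class held rank 140 of the 10RA list by fold, so stronger peaks lay elsewhere.

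Among genes marked only in vector, Taf2 led with a fold of 8.44, at a summit 95 bases after its TSS. Bpnt2 had 8.03, and 1 peak with a fold of 7.86 lay between the starts of Ndufb11 and Rbm10, a splicing regulator. Ttll4, a tubulin glutamylase (7.83), the sorting nexin gene Snx32 (7.48), Ftl1, the light chain of ferritin (7.47), and Tbc1d5, a regulator of endosomal sorting (7.38), followed. The histone genes H2ac23 and H4c17 shared a peak (7.34), followed by the zinc finger gene Zfp382 (7.27) and the proteasome activator gene Psme3 (7.15). At Ftl1 the summit lay 1747 bases into the gene and not at its start. The leading peak here held rank 157 of the vector list by fold.

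The leading genes with a peak in both had higher folds than either class above. Zfp619 had 12.4 in 10RA and 12.7 in vector, with summits 108 bases from the TSS in 10RA and 160 in vector. Rnf14, a ubiquitin ligase, had 11.8 in 10RA and 12.5 in vector, Psmc6 had 9.92 in 10RA and 12.7 in vector, and Tomm70a had 9.08 in 10RA and 11.4 in vector. Snx11, a sorting nexin, had 10.9 in 10RA and 10.3 in vector, and Actl6a, an actin-related subunit of chromatin remodelling complexes, had 8.87 in 10RA and 11.8 in vector. The summits lay close together at Snx11, at 76 bases after the TSS in 10RA and 73 in vector, and further apart at Actl6a, at 18 bases before the TSS in 10RA and 46 after it in vector.

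Where an interval was shared, the summit stood less far above the genome background in 10RA. Over 8442 shared intervals the median summit held 10.5 times the genome background in 10RA and 16.5 times in vector, a median log2 ratio of -0.60. At the promoters of all genes the median log2 ratio was -0.65 over 5187 intervals. The vector list has the higher floor, and its part in this ratio was not tested. Among the lists with values, promoters of developmental regulators stood nearest to equality, with a median of -0.22 over 14 intervals, and those of cytokine and JAK-STAT genes furthest from it, with -1.05 over 8.

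The classes differed in their median CpG content and overlapped widely. The median number of CpG in 1001 bases around the TSS was 50 for genes only in 10RA, 59 for those only in vector, 66 for those with a peak in both and 15 for those with none. The middle 50% of genes spanned 28 to 73 CpG in the 10RA class, 41 to 78 in the vector class and 51 to 83 in the class of both. Among the 4519 genes with 0 to 10 CpG, 3.78% were marked only in 10RA (3.27 to 4.38) and 2.04% only in vector (1.66 to 2.49). Among the 4305 genes with 55 to 75 CpG the shares were 12.5% only in 10RA (11.6 to 13.6) and 14.8% only in vector (13.7 to 15.8). With the 10RA list cut to equal length by p-value, the CpG-poorest group had 108 genes only in 10RA and 102 only in vector. The group with 55 to 75 CpG then had 423 only in 10RA and 853 only in vector. At equal length the classes were thus alike in size at CpG-poor promoters, and the vector class was the larger at CpG-rich ones.

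**Figure D2:**
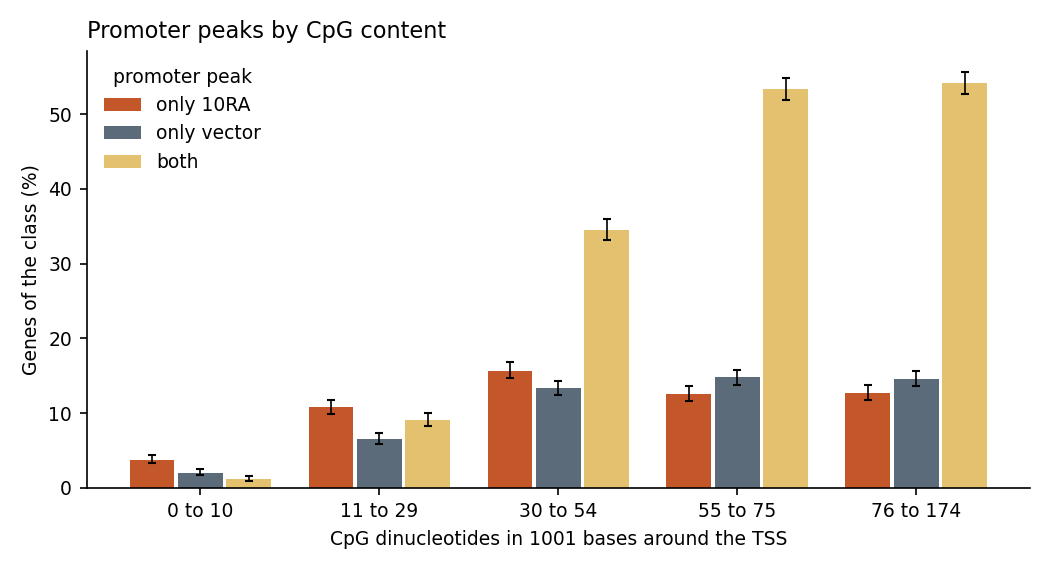
Share of protein-coding genes (percent, Wilson 95% intervals) with a promoter peak only in 10RA, only in vector or in both, in 5 groups of genes by the number of CpG in 1001 bases around the TSS. At 0 to 10 CpG the shares are 3.78% only in 10RA and 2.04% only in vector, and at 55 to 75 CpG they are 12.5% only in 10RA, 14.8% only in vector and 53.4% in both.

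Of the short motifs searched, the ETS and YY1 motifs were more frequent in the vector class than in the 10RA class. Within the 200-base window the ETS motif CCGGAAG, searched on both strands, occurred in 8.07% of genes only in 10RA (7.04 to 9.22) and 15.3% of those only in vector (13.9 to 16.9). It occurred in 13.3% of those with a peak in both, 5.28% of those with none and 9.04% of all. The YY1 motif AAGATGG occurred in 3.49% of genes only in 10RA (2.83 to 4.30) and 5.28% of those only in vector (4.42 to 6.29), against 3.96% of all. The E-box CACGTG was at 6.57% in the 10RA class (5.65 to 7.63) and 8.12% in the vector class (7.06 to 9.33), and the forkhead motif GTAAACA at 1.41% (1.01 to 1.97) in the 10RA class and 1.62% (1.18 to 2.24) in the vector class. The ETS motif and the E-box each contain a CpG, and a match is a description of letters and not a bound site.

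Genes were then grouped by role, in 22 lists. Over all genes the shares to read these against are 11.1% only in 10RA and 10.2% only in vector, with 48.5% in neither. Hox genes and other developmental regulators leaned most to 10RA as listed. Zinc finger and proteasome genes had more members only in vector than only in 10RA, as did other lists, among them interferon-stimulated genes and the BAP1 complex and its partners.

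**Figure D3:**
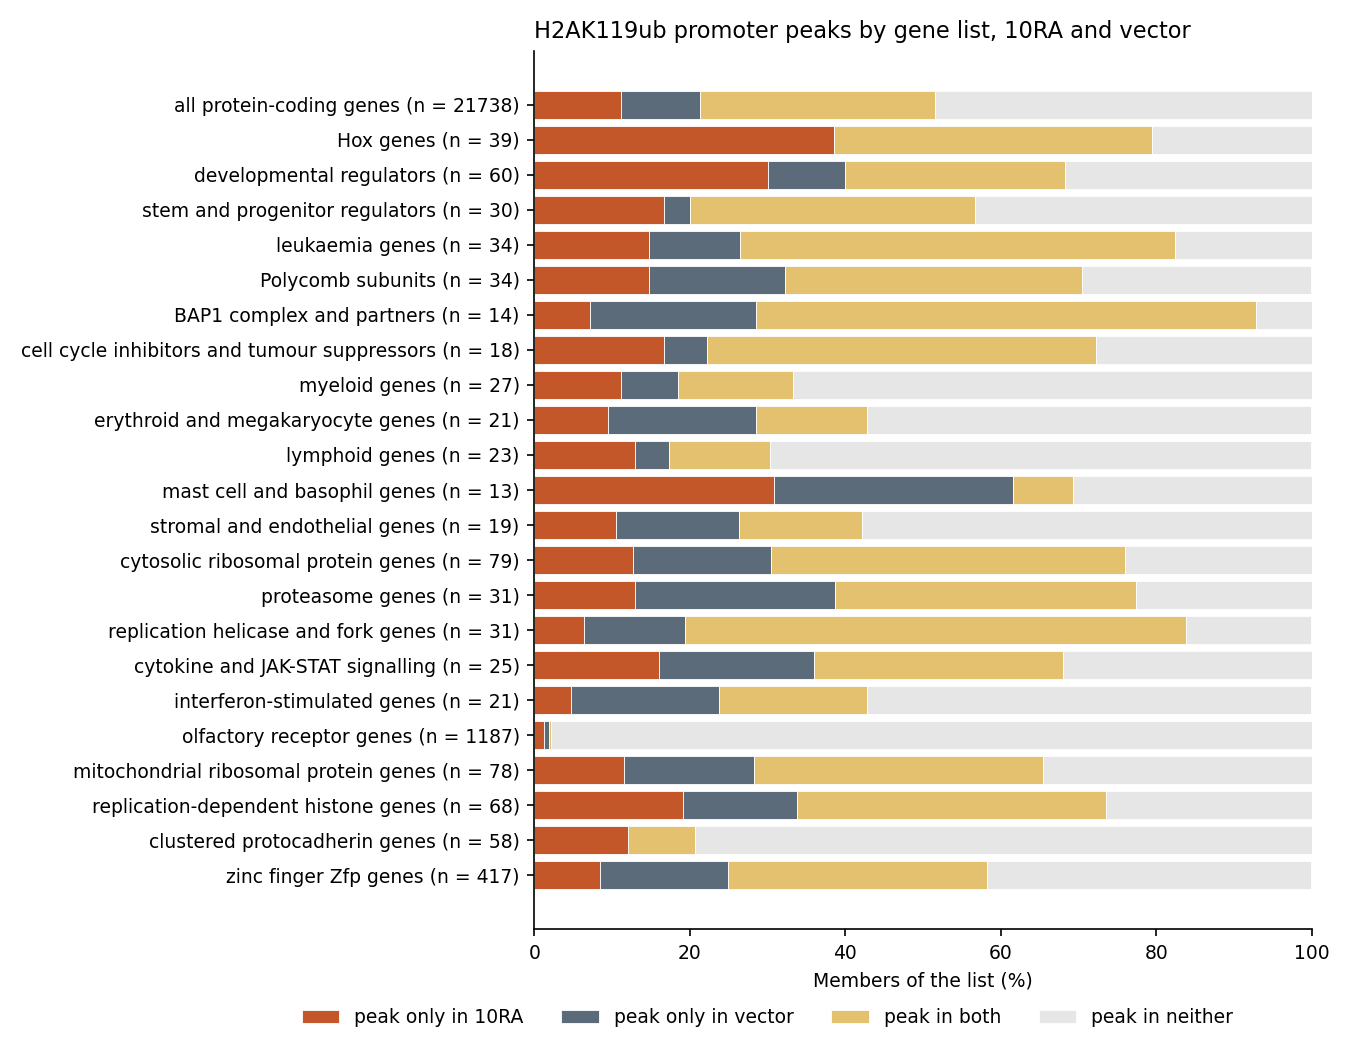
Members of each gene list (percent, number of members in brackets) with an H2AK119ub promoter peak only in 10RA, only in vector, in both or in neither, as listed. Hox genes have 38.5% only in 10RA and 0% only in vector, against 11.1% only in 10RA and 10.2% only in vector of all protein-coding genes.

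The Hox genes encode the transcription factors that set position along the body axis and, in blood, keep progenitors immature. Of 39 Hox genes, 15 had a promoter peak only in 10RA (38.5%, 24.9 to 54.1), 0 only in vector (upper bound of the Wilson interval 8.97%), 16 in both and 8 in neither. Among the 15 were Hoxa9, Hoxa10 and Hoxa11, Hoxb8 and Hoxb9, Hoxc6 and Hoxc12, and Hoxd10 and Hoxd11. The 15 lay under 15 separate intervals, all with q of 0.05 or less, and 12 of them had no vector interval within 5 kb of the TSS.

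The Hoxa cluster showed the widest gap. Across its 11 genes and 5 kb on each side, 10RA had 15 peaks over 4430 bases and vector had 2 peaks over 797 bases. Hoxa13, at the end of the cluster, was marked in both, with a summit pileup of 21.5 times the genome background in 10RA and 30.9 times in vector. At Hoxa11 the 10RA summit held 22.7 times the genome background and at Hoxa10 21.5 times, and vector had no peak at either. Hoxa9, a regulator of progenitor self-renewal and a gene often raised in leukaemia, had a 10RA peak whose summit lay 2088 bases after the TSS, at 22.1 times the genome background, and the nearest vector interval was 25406 bases from its start. Hoxa3, Hoxa4 and Hoxa6 had 10RA summits at 16.3, 11.6 and 15.1 times the genome background. The folds of the Hoxa peaks named here were low, at 2.09 for Hoxa3 and 2.95 for Hoxa4.

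The start of Hoxa9 is shown because its peak lay outside it, and its window held only 3 CpG. It was chosen after its values were seen.
Hoxa9, chr6:52204301-52204500, minus strand: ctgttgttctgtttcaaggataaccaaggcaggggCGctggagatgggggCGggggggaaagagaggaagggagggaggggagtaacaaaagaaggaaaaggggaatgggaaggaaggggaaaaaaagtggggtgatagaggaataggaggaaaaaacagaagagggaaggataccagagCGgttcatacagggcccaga

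The other clusters differed less. Hoxb had 17 peaks in 10RA and 8 in vector, and Hoxd had 18 in 10RA and 12 in vector. Hoxc had 12 in 10RA and 12 in vector, with 4559 bases covered in 10RA and 4096 in vector. Over the 4 clusters 62 peaks were listed in 10RA and 34 in vector, of which 25 met in each list, and 44.0 of the 62 were expected to pass at the depth of vector. The same clusters held 60 peaks in 1-590 and 56 in 25RA. Of the 15 Hox genes only in 10RA, 8 also had a promoter peak in 1-590 and 12 in 25RA. Of all 21738 genes, 12001 had one in 1-590 and 10399 in 25RA.

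**Figure D4:**
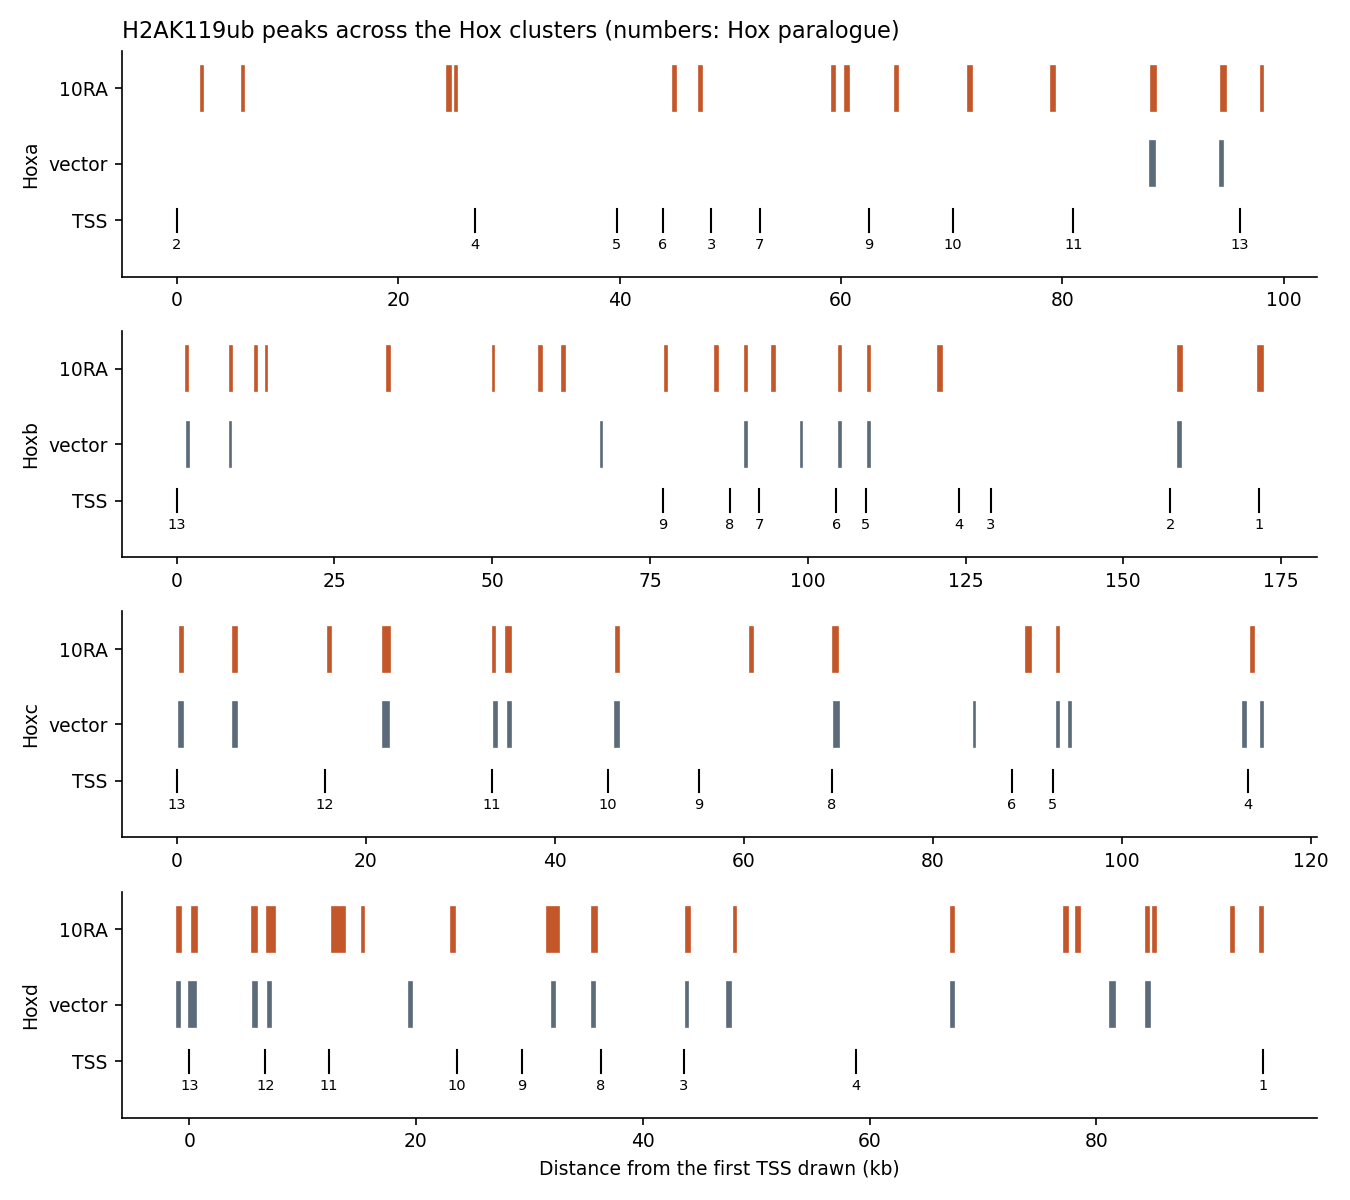
Positions of H2AK119ub peaks (bars, to scale) in 10RA and vector along the Hoxa, Hoxb, Hoxc and Hoxd clusters, in kb from the first TSS drawn, with the TSS of each gene as a tick and its paralogue number; Hoxa is drawn from Hoxa2 on. In that stretch 10RA has 14 peaks and vector 2, both of them towards Hoxa13, while in Hoxc each has 12.

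The Hox counts depended on how the lists were matched. Cut to equal length by p-value, 13 Hox genes were only in 10RA and 2 only in vector, and at the depth of vector 9.86 were expected only in 10RA and 3.64 only in vector. Cut by fold the order turned round, to 2 only in 10RA and 12 only in vector, and among the first 5000 peaks by p-value it was 4 only in 10RA and 7 only in vector. The local background at Hox promoter peaks was 7.27 times the genome background in 10RA and 8.04 times in vector, against 2.23 in 10RA and 2.80 in vector over all promoter peaks. A fold taken over that background is low at these genes in both libraries, at a median of 2.52 in 10RA. With promoters of 1 kb on each side, 8 Hox genes were only in 10RA and 0 only in vector.

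Developmental regulators of other lineages, which are classic Polycomb targets, divided in a like way as listed. Of 60, 18 were only in 10RA (30.0%, 19.9 to 42.5), 6 only in vector (10.0%, 4.66 to 20.1), 17 in both and 19 in neither. Those only in 10RA included the heart and gut factors Gata4 (fold 2.71), Gata6 (2.33) and Foxf1 (2.39), the brain and lung factor Nkx2-1 (3.03), Dlx5 of limb and face (3.51), the cardiac factor Tbx20 (3.38), the limb and heart factor Tbx3 (3.04) and the muscle progenitor factor Pax7 (2.46). Those only in vector included Sox17 (2.70), Lhx9 (2.33), Foxa2 (2.95) and Emx2 (2.72), and none of the 6 was without a 10RA interval within 5 kb of its start. Sox2, Tbx5, Otx2, Nkx2-5 and Pax2 were among the 17 in both. For Nkx2-5, the first transcription factor of the heart field, the summit held 30.8 times the genome background in 10RA and 37.5 times in vector.

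With promoters of 5 kb on each side 18 developmental regulators were only in 10RA and 0 only in vector. Cut to equal length by p-value there were 16 only in 10RA and 7 only in vector, and at the depth of vector 13.5 were expected only in 10RA and 8.46 only in vector. Cut by fold the order turned round here too, with 4 only in 10RA and 15 only in vector. Among the first 5000 peaks by p-value, 14 were only in 10RA and 0 only in vector, which is the reverse of the order at the Hox genes under the same setting.

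Of 30 regulators of stem and progenitor cells, 5 were only in 10RA, 1 only in vector (Spi1), 11 in both and 13 in neither. Among the 5, Prdm16 and Hlf, factors of stem cell maintenance, had 10RA folds of 2.67 and 2.91. Spi1, which encodes the myeloid factor PU.1, had a vector fold of 3.07 and no 10RA interval within 17165 bases. Outside promoters, however, Spi1 had an exon peak only in 10RA. Kit, the receptor by which the cells were selected, was marked in both, with a summit at 17.4 times the genome background in 10RA and 27.5 times in vector. Cebpa, Flt3, Cd34 and Myb were likewise in both. Meis1, a partner of HOX proteins in blood, had a peak in neither promoter, with the nearest intervals 2590 bases from its start in 10RA and 2563 in vector.

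Among 34 genes mutated in leukaemia, 5 were only in 10RA (14.7%), 4 only in vector (11.8%), 19 in both and 6 in neither. These shares lay near the 11.1% only in 10RA and 10.2% only in vector of all genes, so the genes below are named as a description. Those only in 10RA were the kinase gene Jak2, the splicing factor gene Sf3b1, Calr, Trp53 and Wt1. Of the 4 only in vector, Rad21, Smc3 and Stag2 encode cohesin subunits, with folds of 4.19, 3.57 and 5.13, and the other is Setbp1. Smc1a, the remaining cohesin gene of the list, was in both. Of 18 cell cycle inhibitors and tumour suppressors, 3 were only in 10RA, 1 only in vector and 9 in both. Cdkn2a, a Polycomb target that halts the cell cycle, had a 10RA fold of 2.88 at 99 bases after its TSS and no vector interval within 6754 bases. Its neighbour Cdkn2b was in both.

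Many genes of the complexes that lay down or remove the mark had a peak themselves. Of 34 Polycomb subunit genes, 5 were only in 10RA, 6 only in vector, 13 in both and 10 in neither (29.4%, 16.8 to 46.2, against 48.5% of all genes). This list had a median of 78 CpG around the TSS, and 18.5% of all genes with 76 to 174 CpG were in neither. Rybp, Phc1 and Rbbp7 were among those only in 10RA, and Eed, Suz12, Ezh1, Phc3, Pcgf3 and Pcgf6 only in vector. Eed and Suz12 are core subunits of Polycomb repressive complex 2, which methylates histone H3 and does not lay down H2AK119ub, and the third core gene, Ezh2, was in both with folds of 6.01 in 10RA and 5.63 in vector. Of 14 genes of the BAP1 complex and its partners, 1 was only in 10RA (Ubxn7), 3 only in vector (Foxk2, Hcfc1 and Ogt), 9 in both and 1 in neither. Bap1 itself had a promoter peak in both, at 7.55 times the genome background in 10RA and 16.5 times in vector, and Asxl2 one at 7.55 times in 10RA and 9.92 times in vector. Asxl1 had no promoter peak in either, though it had one in 1-590 and in 25RA.

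Most genes of the myeloid, erythroid and lymphoid lists had no peak in either library, while most mast cell and basophil genes had one. Of 27 myeloid genes, 3 were only in 10RA, 2 only in vector, 4 in both and 18 in neither (66.7%, against 48.5% of all genes), and among the unmarked were Mpo, Elane, S100a8 and S100a9. The myeloid list had a median of only 13 CpG around the TSS, and 73.6% of all genes with 11 to 29 CpG were in neither. Of 21 erythroid and megakaryocyte genes, 2 were only in 10RA (the platelet glycoprotein genes Gp9 and Gp1ba), 4 only in vector (Ppbp, Pf4, Epor and Itga2b), 3 in both and 12 in neither. Of 13 mast cell and basophil genes, 4 were only in 10RA (Fcer1a, Mcpt8, Prss34 and Ms4a2), 4 only in vector (Hdc, Cpa3, Mitf and Tpsb2), 1 in both and 4 in neither. The share of mast cell and basophil genes was thus 30.8% only in 10RA (12.7 to 57.6) and 30.8% only in vector (12.7 to 57.6), from 4 genes each. Of 23 lymphoid genes, 3 were only in 10RA (Gata3, Rag1 and Bcl11b), 1 only in vector (Ncr1), 3 in both and 16 in neither. Of 19 stromal and endothelial genes, 2 were only in 10RA, 3 only in vector, 3 in both and 11 in neither.

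Proteasome and Zfp genes had more members only in vector than only in 10RA as listed and under most settings run. The other housekeeping lists differed less. Of 79 cytosolic ribosomal protein genes, 10 were only in 10RA (12.7%) and 14 only in vector (17.7%), and at the depth of vector 6.87 were expected only in 10RA and 20.3 only in vector. With promoters of 5 kb on each side there were 10 only in 10RA and 10 only in vector. Of 31 proteasome genes, 4 were only in 10RA and 8 only in vector, the vector genes including Psma3 (vector fold 6.68), Psmd4 (6.07) and Psmb1 (5.61). Of 31 replication genes, 2 were only in 10RA (Mcm2 and Gins3), 4 only in vector (Mcm6, Rfc2, Cdt1 and Cdc6) and 20 in both, and at q of 0.05 or less 4 were only in 10RA and 3 only in vector. Of 417 Zfp genes, which mostly encode zinc finger repressors, 35 were only in 10RA and 69 only in vector. At equal length by p-value 18 were only in 10RA and 79 only in vector, against 1823 only in 10RA and 2788 only in vector of all genes. Among the first 1000 peaks by p-value the order turned round, with 10 Zfp genes only in 10RA and 8 only in vector.

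The remaining lists divided as follows. Of 78 mitochondrial ribosomal protein genes, 9 were only in 10RA and 13 only in vector, and of 68 replication-dependent histone genes, 13 were only in 10RA and 10 only in vector. Of 25 cytokine and JAK-STAT genes, 4 were only in 10RA and 5 only in vector, and of 21 interferon-stimulated genes, 1 was only in 10RA and 4 only in vector. Among 58 clustered protocadherin genes, whose products give neurons their surface identity, 7 were only in 10RA, 0 only in vector and 5 in both. Of 1187 olfactory receptor genes, 1162 had no peak in either library.

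Among exon peaks outside promoters, most of those with the highest folds in vector were not listed in 10RA, as was true of vector exon peaks in general. Among the 20 exon peaks with the highest fold outside promoters, 13 of 20 in 10RA met a vector interval, and 6 of 20 in vector met a 10RA interval. Over all exon peaks outside promoters, 24.5% of 10RA intervals met a vector interval and 34.4% of vector intervals met a 10RA interval. The leading vector peaks thus lay near the share of all vector exon peaks. The leading 10RA peaks were shared more often than 10RA exon peaks in general. Of the 20 in vector, 19 met an interval in 25RA and 3 one in 1-590. Below a peak in Lars2 (22.1), the vector peaks included those in Cpa3, the mast cell carboxypeptidase (fold 17.2), Lgals3, a galectin of macrophages (12.7 and 8.50), Cma1, mast cell chymase (11.8 and 8.45), and Lyz2, macrophage lysozyme (11.8). Others lay in Spp1, osteopontin (11.1), Gpnmb (10.5), Mmp12, macrophage elastase (10.0), the lysosomal genes Ctsb (9.76), Psap (9.71) and Ctss (9.45), the ferritin gene Fth1 (9.43), the chemokine gene Ccl6 (8.60) and Fcer1a, a chain of the IgE receptor (8.48). Of the vector peaks named, those in Lars2, Lyz2 and Ctsb and the weaker one in Cma1 met a 10RA interval. In 10RA, below the peaks in Lars2 (19.7) and Fcgr3 (8.72), the exon peaks ran from 7.03 at St7 down to 5.53 at Asb16. The 10RA peaks in these named genes all met a vector interval.

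The levels at 9 genes with strong exon peaks in vector were read in the 4 libraries of the batch, the genes having been chosen after their vector peaks were seen. Tmsb4x and Ftl1 are among the 9 but not among the leading exon peaks outside promoters above. Spp1 had 2 exon peaks in vector, the higher at 101 times the genome background, and no peak in 10RA. Lyz2 had 1 exon peak in each, at 12.8 times the genome background in 10RA and 192 times in vector. Psap had 4 peaks in vector, 3 of them with summits in exons, up to 149.9 times the genome background, and 1 outside exons at 9.30 times in 10RA. Tmsb4x, an actin-binding peptide gene, and Ftl1 had a vector peak at 57.3 and 38.6 times the genome background and no peak in 10RA. In 25RA the values were 67.8 times the genome background at Lyz2, 58.1 at Psap and 16.7 at Gpnmb, below vector at each. At Lgals3 the value was 15.1 in 25RA and higher than that in 1-590, against 41.9 in vector. Because the genes were chosen for strong vector peaks, lower values in 10RA were fixed by the choice, and the levels are a description only.

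**Figure D5:**
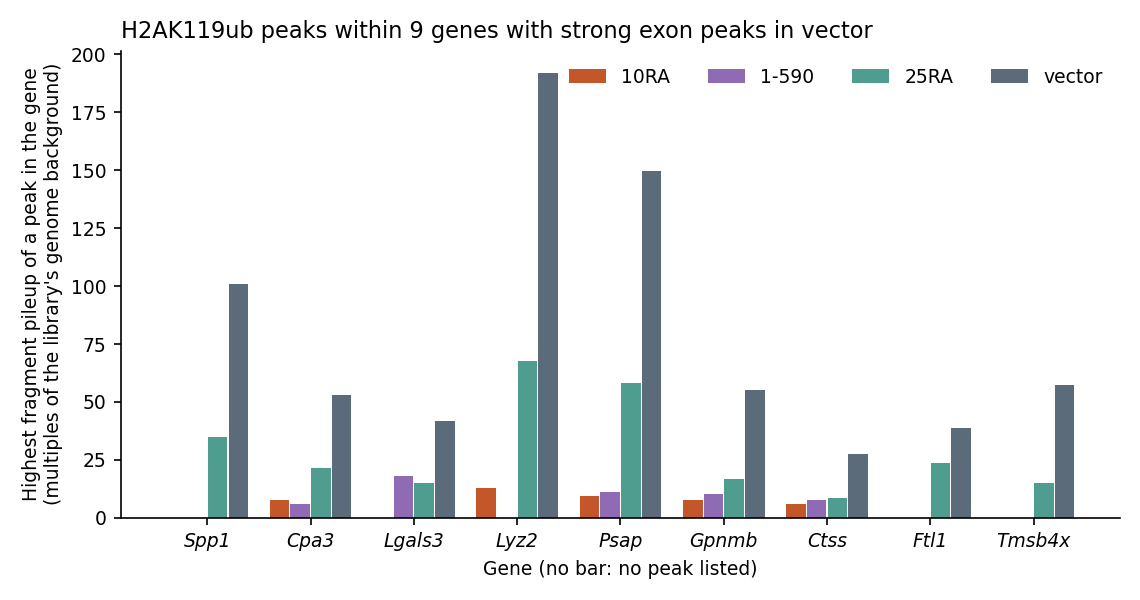
Highest summit pileup of any peak within the gene, in multiples of each library's genome background, at 9 genes chosen for strong exon peaks in vector, in 10RA, 1-590, 25RA and vector; no bar means no peak listed. At Lyz2 the values are 12.8 in 10RA and 192 in vector, and at Spp1 10RA has no peak and vector stands at 101.

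Counted over lists, exon peaks outside promoters occurred only in 10RA at 6.74% of all genes and only in vector at 4.14%. Of 13 mast cell and basophil genes, 0 had them only in 10RA and 3 only in vector (Fcer1a, Hdc and Cpa3), with Cma1 in both. Of 27 myeloid genes, 1 had them only in 10RA (Itgam), 2 only in vector (Csf1r and Cybb) and 4 in both, Lyz2 and Fcgr3 among them. Of 19 stromal and endothelial genes, 3 had them only in 10RA (Pdgfra, Col1a1 and Acta2) and 1 only in vector (Kdr). Of 39 Hox genes, 5 had them only in 10RA and 0 only in vector. Hoxa9 was among the 5 and was also counted above with a promoter peak, whose summit lay 2088 bases after the TSS. The same peak can enter both counts, since promoter peaks were counted by overlap and exon peaks by summit. Whether the exon fragments came from chromatin carrying H2AK119ub or from RNA or its copies was not tested, so these exon peaks may not all be the mark. Whether the libraries differed in their content of mast cells or macrophages was not tested either.

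Bap1 and Asxl1, the genes matching the transduced proteins, each had an exon peak in vector that 10RA lacked. That in Bap1 lay 5188 bases after the TSS with a fold of 4.11, at 12.1 times the genome background. That in Asxl1 lay 54935 bases after the TSS, at 7.71 times the genome background, with a fold of 3.88 and a q of 1.6%.

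Peaks over 5 kb from any TSS made up 74.5% of the intervals only in 10RA (73.9 to 75.2), 68.0% of those only in vector (67.2 to 68.9) and 29.4% of the shared 10RA intervals. The strongest of them only in 10RA lay between genes at chr8:124344177-124344455, 36219 bases from the TSS of Rhou, a small GTPase gene, with a fold of 10.6. The next lay 11027 bases from Xcr1, a chemokine receptor gene (8.49), 51821 bases from Gas8 (8.45) and in an intron of Mrps27 (7.86). None of these sites was particular to 10RA. The one near Xcr1 was also listed in 4 other H2AK119ub libraries and 2 ChIP libraries. Those near Rhou and Gas8 were each in 2 other H2AK119ub libraries, and the one in Mrps27 was in 3. Only in vector, besides the exons of Cpa3, Lgals3 and Spp1, a peak with a fold of 13.7 lay in an intron of Adgrd1, an adhesion receptor gene. Shared in both were 4 stronger sites. One at chr3:5925404-5925858 had a fold of 22.5 in 10RA and 22.2 in vector, and the exon of Lars2, a mitochondrial tRNA ligase gene, had 19.7 in 10RA and 22.1 in vector. Both of these were also listed in the 6 other H2AK119ub libraries and in the 4 ChIP libraries, which used other antibodies.

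The genes of each class were met to unequal degrees by the other libraries of the batch. A promoter peak in 1-590 was present at 69.6% of genes only in 10RA (67.8 to 71.5), 81.8% of those only in vector (80.1 to 83.3), 96.1% of those with a peak in both and 20.7% of those with none. In 25RA the shares were 59.7% only in 10RA (57.7 to 61.7), 63.3% only in vector (61.2 to 65.2), 90.6% in both and 15.2% of those with none. Of all 21738 genes, 12001 had a promoter peak in 1-590 and 10399 had one in 25RA. Of the 10 leading genes only in 10RA, 8 had one in 1-590, and L1td1 did not. Of those only in vector, H2ac23 and H4c17 lacked one in 1-590 and the other 10 had one. Most genes of either class were therefore marked in 1-590 too, a library that marked most genes.

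On the X chromosome, 11.4% of 980 genes were marked only in 10RA (9.59 to 13.6), 8.67% only in vector (7.07 to 10.6) and 10.7% in both (8.93 to 12.8), fewer in both than the 30.3% of all genes. Among the listed genes there, Sox3 and Rbbp7 were only in 10RA, with folds of 2.78 and 3.96, and Kdm6a, an H3K27 demethylase gene, was in both.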

How the data were processed

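H2AK119ub CUT&RUN peaks of the 10RA and vector libraries were analysed, 1 library a condition, grouped by the labels, so no test between conditions was made. The submitters' processing notes name MACS3 3.0.3, with Bowtie2 2.5.4, fastp 0.24.0, Picard and SAMtools, on mm39. As deposited, each peak has a score (10 times -log10 p cut to a whole number, in nearly all peaks), a fold enrichment at the summit, a -log10 p and a -log10 q from the authors' caller, and a summit position. The deposited lists reach a p of 0.001. The deposited fold is a ratio of pileup plus 1 to local background plus 1, from which whole fragments were recovered at every peak (tolerance 0.001). Spike-in reads of E. coli served to normalize the data, per the labels; whether fragments were subsampled to it before calling, and use of a control library, were not given in the sources used here, so depth may carry that scale.

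Only the autosomes 1 to 19 and both sex chromosomes were analysed; 44 peaks in 10RA and 30 in vector lay elsewhere. Coordinates are GRCm39, counted from 1. GENCODE vM39 gave 21738 protein-coding genes with distinct symbols. A gene had a promoter peak where an interval overlapped its promoter by 1 base or more, and lists met on the same rule. Exons are those of protein-coding genes, and a summit in a promoter was counted there first. Expected numbers at the depth of vector are exact binomial expectations for the recovered fragments at a fraction of 0.527, with p recomputed. They keep the listed intervals and cannot add peaks. Shares have Wilson 95% intervals, which cover counting error only. Leading genes are those of the 10 peaks with the highest fold in each 1-library class, with no peak of the other list within 5 kb of the TSS, and the 6 in both whose lower rank by fold is best; the leading sites far from starts are the first 4 by fold. Some genes of these classes and lists are not reported here by name, though the counts include them. The 22 lists (519 of 520 requested symbols found, and 5 lists taken by name pattern) were written from general knowledge. The members and lists were chosen with earlier results of these data known. Functions were tested on simulated data. Python 3.11.15, pandas 2.3.3, SciPy 1.17.1 and pysam 0.24.0 were used.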

Additional observations from a re-analysis of the deposited data

How the results depend on the processing

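Alternatives changed 1 choice at a time. With intervals within 500 bases counted as meeting, 33.2% of 10RA and 46.0% of vector intervals met. With promoters of 1 kb on each side, 26.2% of 10RA and 36.9% of vector summits lay at promoters. With the 10RA list cut to equal length by -log10 p, 37.4% of 10RA and 37.5% of vector intervals met, and 37.6% of 10RA summits lay at promoters. Cut by fold, 34.3% of 10RA and 34.4% of vector intervals met and 1592 promoter genes were only in 10RA. In the first 5000 peaks of each list, 44.2% of 10RA and 44.3% of vector intervals met, 60.6% of 10RA and 70.7% of vector summits lay at promoters, 1281 promoter genes were only in 10RA and 2147 in both. At q of 0.05 or less, 45.3% of vector intervals met, and promoters held 33.5% of 10RA and 45.8% of vector summits. At the depth of vector, 36.0% of 10RA and 33.3% of vector intervals were expected to meet, and 3370.0 genes only in vector. On chromosomes 1 to 19 alone, and with intervals within 1000 bases merged, 30.8% of 10RA intervals met. Of 54 such values, 30 stayed within their interval, or within 1.5 times for counts, and 24 did not. The promoter share was lower in 10RA than in vector under every alternative run except in the first 500 peaks. Counts of the 4 gene lists under the same settings, and the CpG groups at matched length, were added after the data were seen. Shorter lists and fewer fragments are built into the cut and depth alternatives; the cause of the other changes was not tested.

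No paired analysis was possible because each condition had 1 library. With 1 library a condition, differences between cultures, virus uptake, spike-in scale and sequencing depth cannot be told apart from the effect of 10RA. Depth limits what can be called absent: a site needed at least 4.07 times the genome background to be listed in 10RA and at least 5.51 times in vector. It needed more where the local background was higher, as at the Hox genes.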
